A study of Homo sapiens with 9 samples.

Results

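The immediate early genes FOS, FOSL1, JUN, JUNB, JUND, EGR1 and IER2 and the MAPK feedback genes DUSP1, DUSP6 and SPRY2 were chosen by name, as transcription factors that respond first to growth signals and as inhibitors that the same signals induce. Of these 10 genes, 8 had a row among the 22290 genes of the table. JUNB and DUSP1 had no row, so their expression was not analysed, and only their promoter sequences were searched. The study sequenced RNA of the human cell line IMR-32, established from a neuroblastoma, to ask how the amount of TRAP-1, a mitochondrial chaperone of the HSP90 family, bears on gene expression. There were 3 libraries of the parental cells, 3 labelled TRAP-1 knockdown (KD) and 3 labelled TRAP-1 overexpression (OE). The values are regularized log2 counts (rlog), adjusted for the size of each library and shrunken toward the gene's mean, so that a difference of rlog understates the change, more so at low levels. The depth of the libraries is unknown from such values.

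The parental cells carried the genotype label WT, and all cells were grown in DMEM with fetal bovine serum, with no stimulus, inhibitor or time course named. How the KD and OE cells were made, whether each is 1 clone and whether the parental cells carried an empty vector are not given in the sources used here. Nothing states that the replicates came from separate cultures, so the p-values measure the spread between these libraries, which may be technical.

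Growth factor receptors activate RAS and then the kinases RAF, MEK and ERK, and ERK switches on the immediate early genes within minutes through factors already bound to their promoters, such as SRF with its ETS partners and CREB. FOS and JUN proteins pair to form AP-1, and EGR1 is a zinc finger activator. ERK also induces its own inhibitors, the DUSP phosphatases and the Sprouty proteins, so that their RNA is widely read as a record of ERK output, also in neural crest tumours.

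TRAP1 (ENSG00000126602) is the check of the labels. Its rlog value was 10.67, 10.66 and 10.65 in parental replicates 1 to 3, 10.79, 10.79 and 10.83 in the libraries labelled KD, and 10.67, 10.63 and 10.74 in those labelled OE. TRAP1 was thus highest in the libraries labelled KD, all 3 of which lay above all 3 parental ones (difference 0.14, adjusted p = 1.76e-05 from limma), and the libraries labelled OE overlapped the parental ones (difference 0.018, adjusted p = 0.643 from limma). Other annotated genes overlap 28.5% of its exonic bases. Because this gene goes against the names, KD and OE are used below only as labels of libraries.

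The cell type label was checked against 15 adrenergic neuroblastoma genes. INSM1, DBH, STMN2 and ELAVL4 were among those with no row, and PHOX2A, TH and MYCN were among those with a mean rlog under 3. MYCN, which is known to be amplified in IMR-32, had a mean of 2.52 ± 0.045 (SD, n = 3) in the parental libraries. Of the genes with higher values, ISL1 was the most abundant, at 9.37 ± 0.010 (SD, n = 3), followed by GATA2 at 9.27 ± 0.021 (SD, n = 3). Several defining neuroblastoma genes thus had no row or lay near the floor of the table, while ISL1, GATA2, GATA3 and HAND2, the last with 24.1% of its exonic bases shared with another gene, had values above it, and the cells are named here by their label alone.

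Of the 8 genes with a row, 8 were called between the libraries labelled KD and parental (limma, adjusted p under 0.05), where 53.7% of all genes were called. Of the 8, 5 were higher and 3 lower, against 26.9% of all genes higher and 26.9% lower. Between the libraries labelled OE and parental 4 were called, 2 higher and 2 lower, against 34.8% of all genes, 16.9% higher and 18.0% lower. With each library centred on its median, the split over all genes was 2963 higher and 5212 lower in OE, in place of 3762 and 4002, and with 20 Mb block medians removed it was 4909 higher and 3720 lower, so it has no stable direction. Between the libraries labelled OE and KD 6 were called, 2 higher in OE and 4 lower, against 47.3% of all genes, 23.5% higher and 23.8% lower. Those shares of all genes include genes of low level, whereas the 8 members were well above the floor. Restricted to the 14000 genes whose mean rlog was 5 or higher, the test called 10189 in KD, 7386 in OE and 9171 in OE against KD. It then called 8, 5 and 6 of the 8 members. The lists below are set beside all genes, so a larger called share there is not adjusted for level. Both comparisons with parental use the same 3 parental libraries, so their values are set side by side below and not counted as separate support. The members differed widely in size. Against parental, 134 of the 22290 genes had a larger absolute difference than FOS in KD, 321 a larger one than EGR1 and 460 a larger one than FOSL1, but 13697 a larger one than SPRY2.

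**Figure D1:**
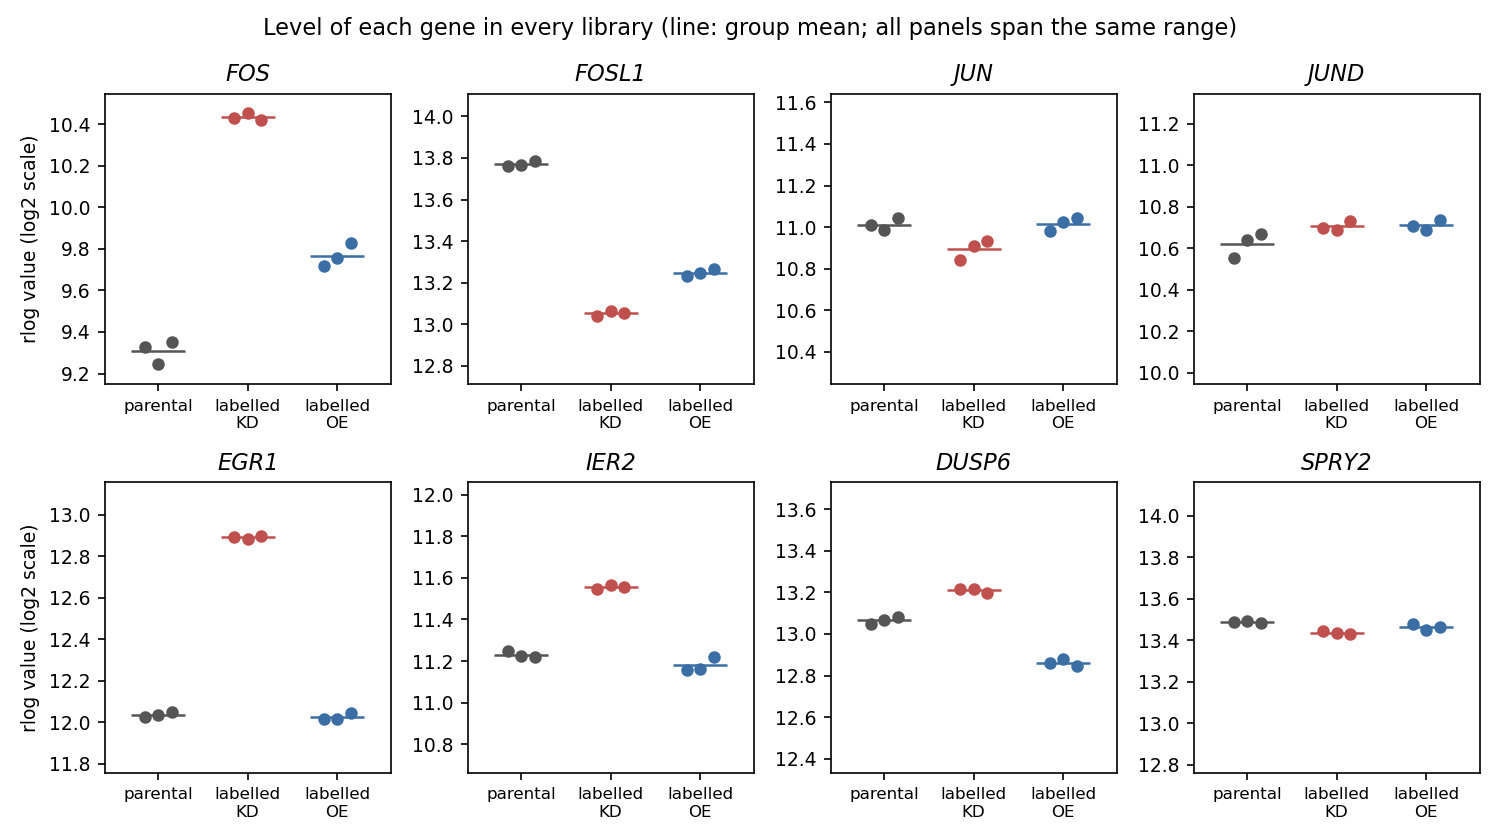
Level of each of the 8 genes in every library, as the rlog value on a log2 scale, with points for single libraries, lines for the group means and panels that span the same range. FOS and EGR1 stand highest in the 3 libraries labelled KD, FOSL1 stands highest in the 3 parental libraries, and SPRY2 hardly moves.

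FOS (ENSG00000170345, chromosome 14 from 75278826 to 75282230 of GRCh38, plus strand) encodes the founding AP-1 subunit, which binds DNA only when paired with a JUN protein. Its rlog value was 9.33, 9.24 and 9.35 in the parental libraries, 10.43, 10.45 and 10.42 in those labelled KD, and 9.72, 9.76 and 9.83 in those labelled OE. The 3 groups did not overlap, with parental lowest, OE between and KD highest. In the libraries labelled KD, FOS rose by 1.13 ± 0.031 (standard error) against parental, with an adjusted p of 1.65e-24 from limma. In those labelled OE it rose by 0.46 ± 0.031 (standard error), with an adjusted p of 1.14e-13 from limma. The direct difference of OE from KD was -0.67, with a 95% confidence interval of -0.73 to -0.60 (adjusted p = 2.97e-18 from limma). FOS thus moved the same way from parental in both engineered groups, by unequal amounts.

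FOSL1 (ENSG00000175592, chromosome 11 from 65892049 to 65900573, minus strand) encodes FRA1, a FOS relative that lacks the strong activation domain of FOS and accumulates while ERK stays active. FOSL1 stood at an rlog of 13.76, 13.77 and 13.78 in the parental libraries, 13.04, 13.06 and 13.05 in those labelled KD, and 13.23, 13.25 and 13.26 in those labelled OE. The order was the reverse of that of FOS, with parental highest and KD lowest, and again no library of any group reached another group. Against parental FOSL1 fell by 0.72 ± 0.014 (standard error) where the label was KD, with an adjusted p of 1.57e-28 from limma, and fell by 0.52 ± 0.014 (standard error) where it was OE, with an adjusted p of 9.40e-24 from limma. OE was above KD by 0.20 (adjusted p = 1.27e-13 from limma). In OE against parental, 182 of all genes had a larger absolute difference than FOSL1 and 252 a larger one than FOS.

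Within a library these opposite changes moved the balance of FOS and FOSL1 RNA. Levels of different genes can be set against each other only per length, here as rlog minus the log2 of the annotated exonic kilobases. On that scale FOS minus FOSL1 was -5.22 in the parental libraries, -3.37 in those labelled KD and -4.24 in those labelled OE, as means of 3 libraries. The SD of this gap between libraries of a group was 0.051, 0.014 and 0.041. FOSL1 stayed the more abundant RNA per kilobase in all 9 libraries, and the gap was narrower by 1.85 in KD and by 0.98 in OE.

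**Figure D2:**
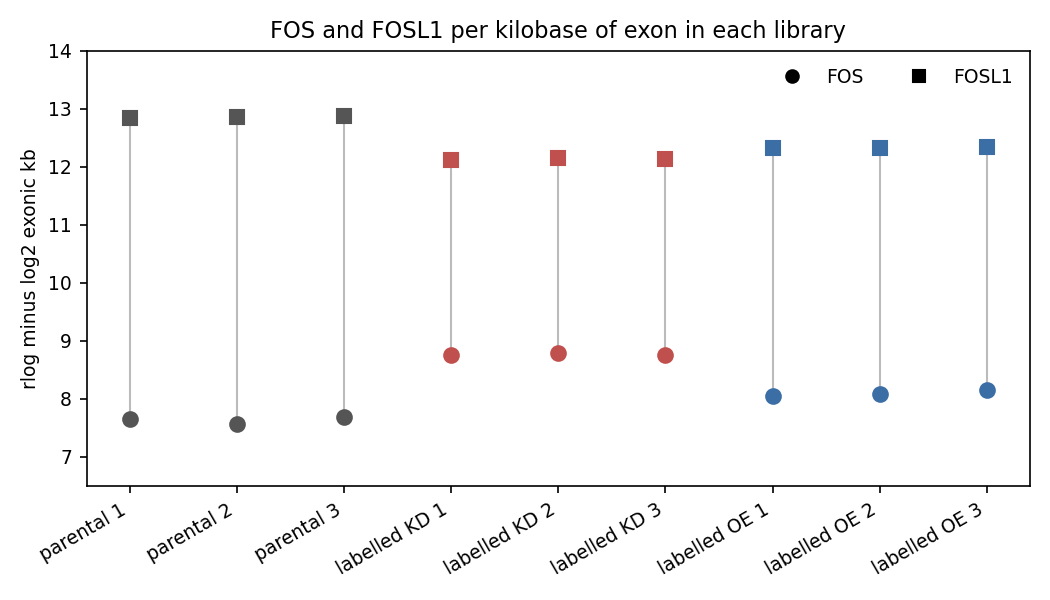
FOS (circles) and FOSL1 (squares) in each of the 9 libraries, as rlog minus the log2 of the exonic kilobases, joined by a line within each library. The gap is widest in the parental libraries (mean -5.22) and narrowest in those labelled KD (mean -3.37).

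JUN (ENSG00000177606, chromosome 1 from 58776845 to 58784048, minus strand, 1 exon) encodes the AP-1 subunit that pairs with FOS proteins or with itself. In rlog, JUN was 11.01, 10.99 and 11.04 in the parental libraries, 10.84, 10.91 and 10.93 in those labelled KD, and 10.98, 11.02 and 11.04 in those labelled OE. The libraries labelled KD lay below the rest, while parental and OE overlapped. JUN fell by 0.12 ± 0.025 (standard error) in KD (adjusted p = 1.24e-04 from limma). OE differed from parental by 0.0043, with a 95% confidence interval of -0.046 to 0.054 (adjusted p = 0.922 from limma), and from KD by 0.12 (adjusted p = 9.68e-05 from limma).

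JUND (ENSG00000130522, chromosome 19 from 18279694 to 18281622, minus strand, 1 exon) encodes the JUN protein that resting cells also make. JUND had rlog values of 10.55, 10.64 and 10.67 in the parental libraries, 10.70, 10.69 and 10.73 in those labelled KD, and 10.71, 10.69 and 10.74 in those labelled OE. Parental was lowest and the engineered groups overlapped each other, with a difference of OE from KD of 0.0057 and an interval of -0.048 to 0.060. Against parental the difference was 0.084 in KD (adjusted p = 0.00729 from limma) and 0.090 in OE (adjusted p = 0.00720 from limma). Both calls rested on parental replicate 1: without it the differences were 0.050 (adjusted p = 0.120 from limma, range over all alternatives 0.00119 to 0.120) and 0.056 (adjusted p = 0.116 from limma, range 2.47e-05 to 0.116). With 20 Mb block medians removed they were larger, at 0.099 in KD and 0.14 in OE (adjusted p = 0.00119 and 2.47e-05 from limma). JUN and JUND, the AP-1 partners with a row, thus moved far less than FOS and FOSL1.

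EGR1 (ENSG00000120738, chromosome 5 from 138465479 to 138469303, plus strand) and IER2 (ENSG00000160888, chromosome 19 from 13150411 to 13154911, plus strand) are immediate early genes outside AP-1. EGR1 encodes a zinc finger factor that SRF and its ETS partners induce, and IER2 a nuclear regulator induced with it. The RefSeq promoter table (GRCh38.p14) had entries for 9 of the 10 genes, FOSL1 being the exception. The 250 bases before the start are printed for the 3 genes that were higher in libraries labelled KD than in both other groups by over 0.3, chosen after their values were seen, because factors that act at such promoters are the usual entry of the ERK signal. Sequences read 5′ to 3′ on the gene's own strand, here plus for all 3, with capitals for CArG boxes, the letters that SRF binds, and for TGACG, the core of the CREB element, on either strand (CGTCA where the match is on the other strand).
EGR1, chr5:138465229-138465478: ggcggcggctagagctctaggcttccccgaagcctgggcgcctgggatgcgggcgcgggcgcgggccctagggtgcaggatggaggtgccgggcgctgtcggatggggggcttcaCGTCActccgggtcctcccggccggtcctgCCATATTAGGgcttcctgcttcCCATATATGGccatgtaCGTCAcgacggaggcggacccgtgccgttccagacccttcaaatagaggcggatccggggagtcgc
FOS, chr14:75278578-75278827: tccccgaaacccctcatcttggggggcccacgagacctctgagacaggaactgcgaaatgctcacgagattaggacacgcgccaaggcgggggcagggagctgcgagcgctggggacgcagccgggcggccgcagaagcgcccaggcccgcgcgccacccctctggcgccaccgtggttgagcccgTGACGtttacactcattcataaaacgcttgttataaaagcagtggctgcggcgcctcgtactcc
IER2, chr19:13150161-13150410: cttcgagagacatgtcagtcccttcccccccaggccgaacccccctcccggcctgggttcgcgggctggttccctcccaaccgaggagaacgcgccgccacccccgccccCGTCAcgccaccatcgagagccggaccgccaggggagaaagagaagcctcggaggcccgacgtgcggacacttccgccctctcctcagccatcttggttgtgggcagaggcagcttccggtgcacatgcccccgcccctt

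EGR1 held 2 CArG boxes, which begin 105 and 83 bases before the start, and TGACG at 135 and 66 bases on the other strand. FOS held TGACG at 64 bases before the start, and IER2 held it at 140 bases on the other strand. No other gene of the 9 held a CArG box in this window, and a CArG box stood in 1.16% of 35097 promoter windows of the same length. TGACG stood in 21.2% of those windows and in 8 of the 9 genes with an entry, DUSP6 being the exception. The full CREB element TGACGTCA, which contains TGACG, was in DUSP1 and JUND and in 1.65% of all windows. Of the other motifs searched on both strands, the AP-1 letters TGANTCA were in 0 of the 9 genes and in 6.57% of all windows, the ETS letters CCGGAAG were in IER2 and in 8.52% of all windows, and the EGR letters GCGNGGGCG were in EGR1 and SPRY2 and in 8.41% of all windows. A match describes the letters only, and the window leaves out anything farther from the start.

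EGR1 had an rlog value of 12.02, 12.03 and 12.05 in the parental libraries, 12.89, 12.88 and 12.90 in those labelled KD, and 12.02, 12.02 and 12.04 in those labelled OE. The libraries labelled KD stood apart from all others, and OE and parental overlapped. EGR1 rose by 0.85 ± 0.017 (standard error) in KD against parental (adjusted p = 1.64e-28 from limma), and OE was below KD by a difference of -0.86 (adjusted p = 1.86e-28 from limma). OE differed from parental by -0.0098, with a 95% confidence interval of -0.044 to 0.024 (adjusted p = 0.707 from limma). So FOS, but not EGR1, was called higher in the libraries labelled OE, and both were lower there than in KD.

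IER2 had an rlog value of 11.25, 11.22 and 11.22 in the parental libraries, 11.55, 11.57 and 11.56 in those labelled KD, and 11.16, 11.16 and 11.22 in those labelled OE. KD was highest, and OE replicate 3 reached the parental libraries. IER2 rose by 0.33 ± 0.021 (standard error) in KD (adjusted p = 7.60e-15 from limma), and OE was below KD by a difference of -0.38 (adjusted p = 3.05e-16 from limma). OE differed from parental by -0.050 (adjusted p = 0.0627 from limma, range over all alternatives 0.0114 to 0.920), which was called without OE replicate 3 (-0.070, adjusted p = 0.0134 from limma), with libraries centred on their medians (-0.068) and when only genes of a mean rlog of 5 or more were tested (adjusted p = 0.0320 from limma). It was 0.0031 after removal of the median of its 20 Mb block, where 283 genes had a median of -0.053 in OE. Other annotated genes overlap 52.2% of the exonic bases of IER2, and the library kit does not mark strand, so its values are uncertain.

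DUSP6 (ENSG00000139318, chromosome 12 from 89347235 to 89352501, minus strand) encodes the cytoplasmic phosphatase that removes the activating phosphates of ERK. DUSP6 stood at an rlog of 13.05, 13.07 and 13.08 in the parental libraries, 13.22, 13.22 and 13.20 in those labelled KD, and 12.86, 12.88 and 12.85 in those labelled OE. The groups did not overlap, with OE lowest, parental between and KD highest. DUSP6 rose by 0.15 ± 0.015 (standard error) in KD (adjusted p = 4.80e-10 from limma) and fell by 0.20 ± 0.015 (standard error) in OE (adjusted p = 7.88e-13 from limma), so it was the member called in opposite directions in the libraries labelled KD and OE. The direct difference of OE from KD was -0.35, with an interval of -0.38 to -0.32 (adjusted p = 3.02e-19 from limma). Another annotated gene shares 28.6% of its exonic bases.

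SPRY2 (ENSG00000136158, chromosome 13 from 80335976 to 80341126, minus strand) encodes a Sprouty protein that restrains signalling from receptors to RAS and RAF. SPRY2 had rlog values of 13.49, 13.49 and 13.48 in the parental libraries, 13.44, 13.44 and 13.43 in those labelled KD, and 13.48, 13.45 and 13.46 in those labelled OE. The groups did not overlap, but the whole span was small. SPRY2 fell by 0.051 ± 0.013 (standard error) in KD (adjusted p = 0.00136 from limma), and its neighbours in that order did not pass the test, with -0.023 for OE against parental (adjusted p = 0.189 from limma) and 0.028 for OE against KD (adjusted p = 0.0823 from limma). The median of 23 genes in the same 20 Mb block was higher in KD by 0.097, and after its removal SPRY2 was lower in KD by a difference of -0.15. With block medians removed OE also passed the test against parental (-0.043, adjusted p = 0.0115 from limma, range over all alternatives 0.0115 to 0.842), as it did with centred libraries (-0.041), and OE passed it against KD with block medians removed (0.11) and after quantile normalization (0.041).

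**Figure D3:**
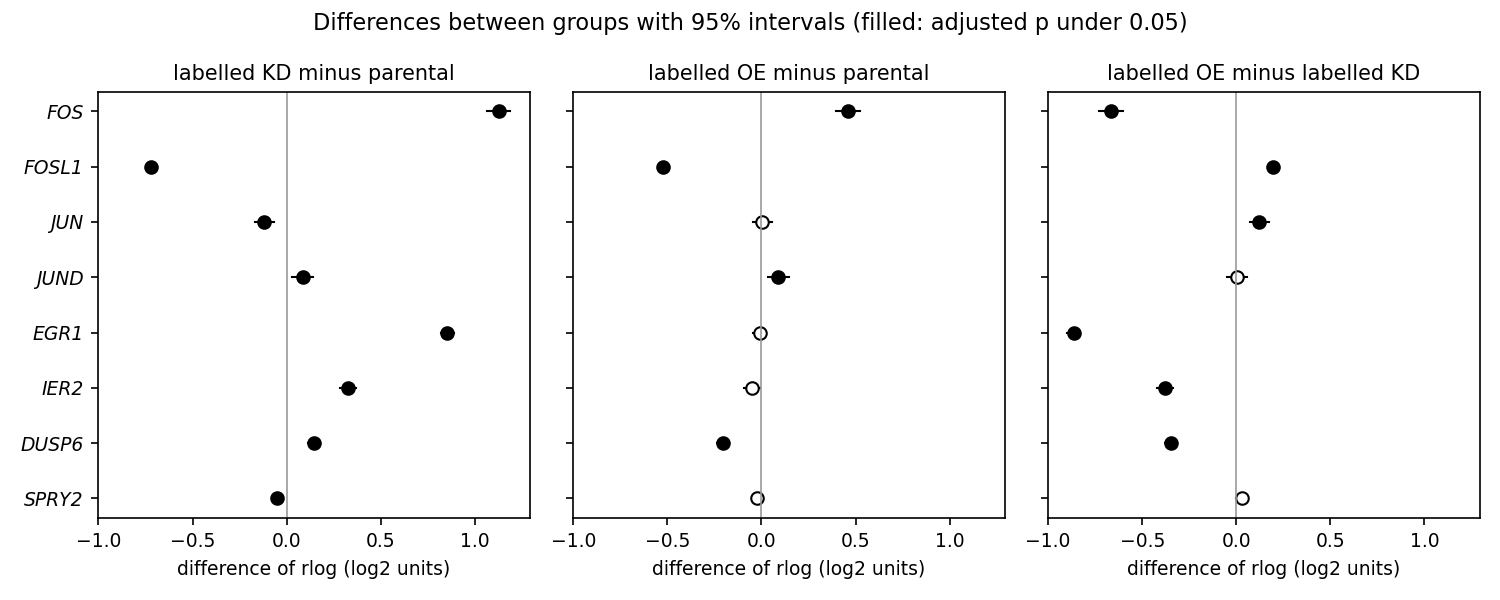
Difference of rlog between groups for the 8 genes, with lines for 95% confidence intervals and filled points for an adjusted p under 0.05. FOS (1.13) and EGR1 (0.85) lie farthest to the right in KD against parental, and DUSP6 lies to the right in KD (0.15) and to the left in OE (-0.20).

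Per exonic kilobase the order of levels in the parental libraries was FOSL1 (12.85), SPRY2 (11.80), DUSP6 (11.12), EGR1 (10.39), JUND (9.67), IER2 (9.61), JUN (9.15) and FOS (7.64), as mean rlog minus log2 kilobases. In the libraries labelled KD the order was the same except that IER2 (9.93) stood above JUND (9.76), while EGR1 (11.24) came close to DUSP6 (11.26) and FOS (8.76) nearer to JUN (9.04). By this length FOSL1 and SPRY2 stood highest in the set, and FOS lowest, in every group. The length joins the exons of all annotated transcripts, 3186 bases for FOS, and a shorter main transcript would place a gene higher. The order of genes at close levels, such as FOS and JUN in KD, is therefore uncertain. DUSP6 came next after SPRY2, but in KD it was nearly level with EGR1 (EGR1 minus DUSP6 -0.021 per kilobase).

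Across the 9 libraries, the profiles nearest to that of FOS, as the root mean square distance of mean-centred rlog values among the 9956 genes whose mean rlog reached 8, were those of HLA-DOA (0.037), ADGRL3 (0.048) and SPRY1 (0.070). Their differences in libraries labelled KD against parental were 1.10, 1.12 and 1.09, and in libraries labelled OE against parental 0.41, 0.45 and 0.56. SPRY1 is also a member of the feedback list described below, and the others belong to none of the lists.

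Of 13 AP-1 and partner bZIP factors outside the members, 10 had a row, and 2 were higher and 7 lower in libraries labelled KD (median difference -0.15, against -0.00051 over all genes). In OE 3 were higher and 5 lower (median -0.044, against 0.00039 over all genes), and against KD 5 were higher in libraries labelled OE and 2 lower (median 0.065; 70% called, against 47.3% of all genes, 23.5% higher and 23.8% lower). The shares of this list called against parental, 90% in KD and 80% in OE, stand beside 53.7% and 34.8% of all genes. ATF3, a stress-induced bZIP factor, fell from 9.28 ± 0.060 (SD, n = 3) to 8.16 ± 0.042 (SD, n = 3) in KD, a difference of -1.12 (adjusted p = 7.41e-23 from limma), and was 8.84 ± 0.026 (SD, n = 3) in OE, a difference of -0.44 (adjusted p = 1.01e-11 from limma). BATF3 fell by 0.40 in KD and MAFF fell by 0.33 in OE. The increases were smaller, with ATF2 at 0.14 and FOSL2 at 0.069 in KD and JDP2 at 0.30 and FOSL2 at 0.16 in OE, and JDP2 was called lower in KD (-0.25, adjusted p = 3.72e-05 from limma). ATF3, an immediate early gene in many cells, thus moved against FOS and with FOSL1.

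Of 30 other immediate early genes, 29 had a row. In KD 6 were higher and 19 lower (median -0.24; 86.2% called, against 53.7% of all genes, of which 26.9% were higher and 26.9% lower), and in libraries labelled OE 3 were higher and 19 lower (median -0.12; 75.9% called, against 34.8% of all genes, 16.9% higher and 18.0% lower). Between OE and KD 16 were higher in OE and 8 lower (median 0.055; 82.8% called, against 47.3% of all genes, 23.5% higher and 23.8% lower). The largest increases in libraries labelled KD were those of NR4A2, an orphan nuclear receptor (0.68, adjusted p = 3.62e-20 from limma), and HES1, a bHLH repressor (0.45, adjusted p = 3.06e-15 from limma), which was called lower in OE (-0.11, adjusted p = 0.00333 from limma). CCN2, a matrix-associated signalling protein, and KLF4, a zinc finger factor, fell by 0.99 and 0.94 in KD and fell by 0.56 and 0.69 in OE, and 11.9% of the exonic bases of CCN2 are shared with another gene. In OE the largest increases were those of SOCS3 (0.17) and KLF6 (0.16).

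Of 16 other MAPK feedback genes, all with a row, 8 were higher and 6 lower in libraries labelled KD (median 0.015) and 5 were higher and 8 lower in libraries labelled OE (median -0.070). Against KD 6 were higher in OE and 9 lower (median -0.12; 93.8% called, against 47.3% of all genes, 23.5% higher and 23.8% lower). In KD 87.5% of the list were called and in OE 81.3%, where 53.7% and 34.8% of all genes were. SPRY1 and SPRY4, relatives of SPRY2, were higher in KD, where SPRY2 was lower. SPRY1 rose from 8.44 ± 0.045 (SD, n = 3) to 9.53 ± 0.029 (SD, n = 3) in KD, a difference of 1.09 (adjusted p = 3.62e-23 from limma), and by 0.56 in OE (adjusted p = 6.37e-15 from limma). SPRY4 rose by 0.56 in KD (adjusted p = 2.73e-26 from limma) and had a difference of 0.021 in OE (adjusted p = 0.242 from limma). Of the phosphatases, DUSP10 fell by 0.70 in KD and fell by 0.39 in OE, DUSP2 fell by 0.60 in KD, DUSP5 fell by 0.33 in OE, and DUSP9 rose by 0.40 in OE. In KD the last 2 were called the other way, DUSP5 higher by 0.057 (adjusted p = 0.0337 from limma) and DUSP9 lower (-0.13, adjusted p = 0.00985 from limma).

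Of 12 ERK output genes, 11 had a row, and 5 were higher and 6 lower in libraries labelled KD (median -0.13) and 3 higher and 7 lower in libraries labelled OE (median -0.16). Against KD 3 were higher in OE and 6 lower (median -0.22; 81.8% called, against 47.3% of all genes, 23.5% higher and 23.8% lower). The called share was 100% in KD and 90.9% in OE, against 53.7% and 34.8% of all genes. VGF, a secreted neuropeptide precursor induced by nerve growth factor, rose from 12.35 ± 0.031 (SD, n = 3) to 14.25 ± 0.045 (SD, n = 3) in KD, a difference of 1.90 (adjusted p = 2.55e-35 from limma), and by 0.64 in OE (adjusted p = 8.87e-22 from limma). ETV5, an ETS factor, rose by 0.65 in KD, and PHLDA1 rose by 0.12 in OE. The cytokine LIF fell by 0.70 in KD and fell by 0.57 in OE, the receptor EPHA2 fell by 0.40 in KD, and CCND1, with 10.4% of its exonic bases shared with another gene, fell by 0.36 in OE. The list held large changes of either sign in the same libraries.

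**Figure D4:**
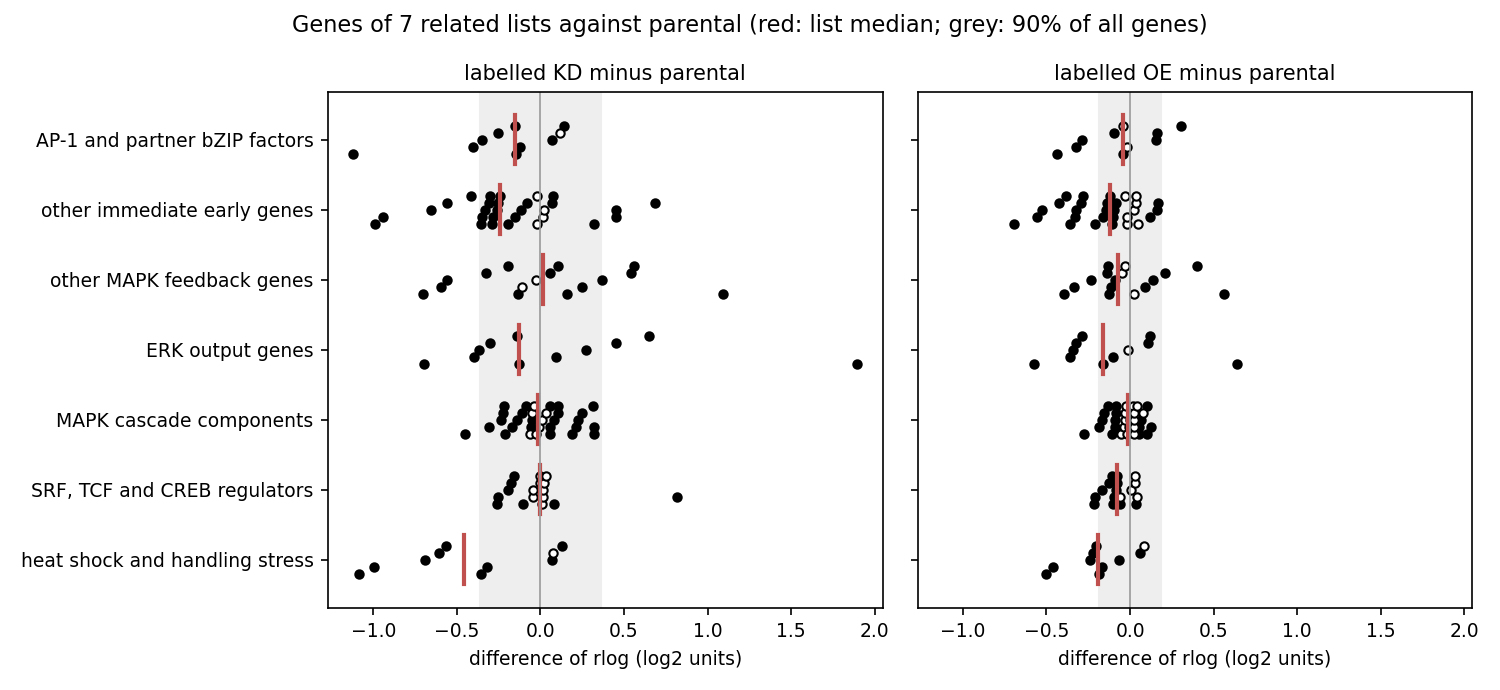
Difference of rlog against parental for every gene with a row in 7 related lists, filled where the adjusted p was under 0.05, with red bars for list medians and a grey band that holds the middle of all genes out to percentile 90 of the absolute difference (0.36 in KD and 0.18 in OE). VGF (1.90) and SPRY1 (1.09) lie farthest to the right in KD, and ATF3 (-1.12) and HSPA1A (-1.08) farthest to the left.

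Upstream, the 32 MAPK cascade components had medians near 0. In KD 13 were higher and 12 lower (median -0.018), in libraries labelled OE 6 were higher and 10 lower (median -0.015), and between OE and KD 9 were higher in OE and 14 lower (median -0.0046; 71.9% called, against 47.3% of all genes, 23.5% higher and 23.8% lower). Called were 78.1% of them in KD and 50% in OE, beside 53.7% and 34.8% of all genes. That excess shrinks beside the 14000 genes whose mean rlog was 5 or higher, of which 10189 were called in KD and 7386 in OE. In OE the called share of the list was slightly below that of those genes. The median in OE was 0.0027 after quantile normalization, so it has no stable sign. In KD the adaptor SHC1 (0.32) and MAPK10 (0.32) rose most, while HRAS fell by 0.31. The level of MAPK10 was low, with a mean rlog of 4.42 in the parental libraries and 4.75 in those labelled KD. In OE the receptor ERBB3 (0.13) and MAP2K6 (0.10) rose most, while MAP2K3 fell by 0.28 and RASA1 fell by 0.19. Of the exonic bases of SHC1 and RASA1, 15.2% and 14.7% are shared with other genes. EGFR fell by 0.11 in libraries labelled KD (adjusted p = 5.96e-04 from limma), and its ligand AREG fell by 1.57 in KD and fell by 1.17 in OE.

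Among 17 SRF, TCF and CREB regulators, 2 were higher and 6 lower in libraries labelled KD (median -0.0042, and 0.0039 after quantile normalization), and 1 was higher and 11 lower in libraries labelled OE (median -0.081). Between OE and KD 4 were higher in OE and 8 lower (median -0.035; 70.6% called, against 47.3% of all genes, 23.5% higher and 23.8% lower). Against parental the share called was 47.1% in KD, below the 53.7% of all genes, and 70.6% in OE, above the 34.8% of all genes. RPS6KA2, a kinase that ERK activates, rose by 0.81 in KD (adjusted p = 6.85e-24 from limma), and ELK3 rose by 0.080. RPS6KA1 and RPS6KA4 fell by 0.26 and 0.26 in KD and fell by 0.22 and 0.21 in OE, and RPS6KA3 rose by 0.038 in OE and fell by 0.16 in KD.

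Heat shock and handling stress also induce immediate early genes, and a list of 10 such genes was read beside them. In KD 2 were higher and 7 lower (median -0.46), in OE 1 was higher and 8 lower (median -0.19), and between OE and KD 7 were higher in OE and 1 lower (median 0.26; 80% called, against 47.3% of all genes, 23.5% higher and 23.8% lower). In KD 90% of them were called and in OE 90%, against 53.7% and 34.8% of all genes. HSPA1A and HSPA1B, near-identical copies whose reads the counting could split, fell by 1.08 and 0.998 in KD and fell by 0.46 and 0.50 in OE, and 36.6% of the exonic bases of HSPA1B are shared with another gene. BAG3 rose by 0.13 in KD and fell by 0.064 in OE, and HSPB1 was higher by 0.067 in KD and by 0.060 in OE with overlapping groups. The log2 of the summed level of the list was 18.41, 18.43 and 18.41 in the parental libraries, 17.96, 17.93 and 17.94 in those labelled KD, and 18.24, 18.22 and 18.21 in those labelled OE, with HSP90AA1 as its most abundant gene. These levels moved with the groups, in the order opposite to FOS, and their part in the result was not tested.

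Markers of other cell types were read in the same way. Of 10 fibroblast or mesenchymal genes 9 had a row, and COL1A2 and COL3A1 had a mean rlog under 3. The log2 of their summed level was 15.83, 15.83 and 15.83 in the parental libraries, 16.26, 16.27 and 16.26 in those labelled KD, and 16.03, 16.00 and 16.03 in those labelled OE, and VIM, with 24.6% of its exonic bases shared with other annotated genes, made up 90.3% of the sum. PRRX1 (1.29), TWIST1 (0.43) and VIM (0.36) were called higher in KD and LUM (-0.18) lower, and PRRX1 (0.69), TWIST1 (0.28), LUM (0.22) and VIM (0.15) were called higher in OE, genes picked out after their values were seen. Of the 9 genes 44.4% were called in KD and 44.4% in OE, against 53.7% and 34.8% of all genes. The order of the groups in the sum was that of FOS, while that of LUM was not. The part of these genes in the result was not tested, nor can more cells of a kind and more RNA per cell be told apart in bulk libraries.

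Of 12 epithelial genes 8 had a row, CDH1, KRT19 and CLDN7 being among those with none, and EPCAM, KRT5 and ESRP1 had a mean rlog under 3. The log2 of their summed level was 12.54 to 12.56 in the parental libraries, 12.55 to 12.61 in those labelled KD and 12.40 to 12.42 in those labelled OE, with KRT18, which shares 17.1% of its exonic bases with another gene, as the most abundant gene (72.1% of the sum). Other genes of the list, picked out after their values were seen, moved more than the sum: KRT8 rose by 0.39 in KD and by 0.40 in OE, KRT14 fell by 0.70 in KD and fell by 0.49 in OE, and CLDN4 fell by 0.57 in OE. Of the Schwann cell genes, SOX10 had no row, and S100B was 11.09 ± 0.020 (SD, n = 3) in parental, 11.10 ± 0.016 (SD, n = 3) in KD and 11.38 ± 0.012 (SD, n = 3) in OE. Of 5 leukocyte genes LYZ and PTPRC had a row, PTPRC with a mean under 3 and LYZ with 34.7% of its exonic bases shared with another gene, and the log2 of their summed level was 6.10 to 6.15 in parental, 5.83 to 5.87 in KD and 5.90 to 6.04 in OE. The adrenergic list summed to 10.64 to 10.67 in parental, 10.51 to 10.55 in KD and 10.55 to 10.63 in OE. The part of these lists in the results was not tested.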

How the data were processed

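RNA was measured in 9 libraries. The authors removed adapters and poor reads (cutadapt), aligned the rest to GRCh38 (hisat2), obtained gene counts with featureCounts and dropped genes with few reads; DESeq2 is named in the submitters' processing notes. The deposited values are regularized log2 values of 22290 genes, and library depth is unknown from them. They were used as deposited, without a filter on low values. Of the gene identifiers, 22195 were matched to symbols and to GENCODE release 44. Group differences came from 1 fit of limma 3.58.1 in R 4.3.3 to the 9 libraries, a moderated linear model whose prior variance follows the level, two-sided. P-values were adjusted after Benjamini and Hochberg over the 22290 genes, and a gene was called at an adjusted p under 0.05. The procedure was tested on simulated data. Few genes were changed in those data, unlike the many called here. Confidence intervals are at 95% and not adjusted.

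The members and lists were chosen with earlier results of these data known. Named were all 10 members, TRAP1, EGFR and AREG; from each list and comparison against parental the called genes with the 2 largest increases and the 2 largest decreases; and the 3 profiles nearest to the member with the largest called difference. The alternatives were no variance trend, robust variances, a mean rlog of at least 5, only the groups compared, median centring, quantile normalization, the replicate number as a block, each library left out, a difference over 0.5, and removal of the median of each 20 Mb block. Some genes of the lists that this rule or the marker checks would name are not reported here.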

Additional observations from a re-analysis of the deposited data

How the results depend on the processing

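Over the alternatives other than a required difference over 0.5, 319 member differences kept their direction and their side of the threshold, 7 passed it newly, 2 lost it and 8 changed sign, all 8 in differences not called at first. The JUN difference of OE from parental was -0.014 with libraries centred on their medians, and -0.0093 to 0.021 with each library left out, falling below 0 without parental replicate 2 (-0.0090) and without OE replicate 3 (-0.0093). That of EGR1 was 0.0096 after quantile normalization, and that of IER2 0.0031 with 20 Mb block medians removed. The JUND difference of OE from KD was -0.0011 with centred libraries, and -0.0079 to 0.018 with each library left out, falling below 0 without KD replicate 2 (-0.0020) and without OE replicate 3 (-0.0079). The calls that JUND lost are given with its values. With that difference required, 1110 genes and 3 members, in place of 8, were called in KD against parental, 200 and 1, in place of 4, in OE against parental, and 793 and 2, in place of 6, in OE against KD. With each library left out in turn, 11106 to 11368 genes and 7 to 8 members were called in KD, 6857 to 7325 and 3 to 5 in OE, and 9636 to 10004 and always 6 in OE against KD. Of 42 list medians under a scaling chosen after seeing the data, 2 changed sign (0.0027 for MAPK cascade components in OE and 0.0039 for SRF, TCF and CREB regulators in KD, both after quantile normalization). In OE, centring gave -0.14 for other immediate early genes, -0.088 for other MAPK feedback genes, -0.033 for MAPK cascade components and -0.099 for SRF, TCF and CREB regulators, and quantile normalization gave -0.062 for other MAPK feedback genes, -0.068 for SRF, TCF and CREB regulators and -0.15 for heat shock and handling stress, which was -0.39 in KD. By less than the spread between replicates, centring also took medians near 0 to 0.0040 for other MAPK feedback genes, -0.029 for MAPK cascade components and -0.015 for SRF, TCF and CREB regulators in KD, and to -0.011 for MAPK cascade components in OE against KD, where quantile normalization gave -0.0098. The cause of these shifts was not tested. The replicate numbers paired the libraries weakly if at all. Correlations ran from -0.071 to 0.14 for same-numbered libraries and from -0.14 to 0.075 for differently numbered ones. Over 0.1 lay 2 of the 9 same-numbered pairs, KD with OE for numbers 1 (0.12) and 3 (0.14), and 0 of the 18 others. In 5 of 18 cases a library correlated best with its own number in another group. With a replicate block 12015, 7854 and 10623 genes and 8, 4 and 6 members were called. A nominal number of reads is stated for the sequencing, but the depth that each library reached cannot be read from rlog values, so what it limits could not be given.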
